A study of Mus musculus with 12 samples.

Results

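The genes described here build and run mitosis: the cyclins and kinases that start it, the spindle checkpoint, the kinetochore, the spindle motors, the cytokinesis apparatus and the condensed chromosome. They are 52 listed genes, and each was found in the deposited RNA table by its symbol, or for 2 of them by an older symbol with the same Entrez number (Cdk1, listed as Cdc2a, and Kif20b, listed as Mphosph1). The table holds 23427 genes, of which 15371 have a value. RNA came from cardiomyocytes differentiated in vitro from CM7/1, a murine embryonic stem cell line, in a version carrying an inducible Hey1 gene (the Hey1 line) and one carrying an inducible Hey2 gene (the Hey2 line). Hey1 and Hey2 are basic helix-loop-helix repressors downstream of Notch. The 4 groups were control cells of each line, called uninduced here, and cells of each line given 1000 ng/ml doxycycline for 48 h, called induced. Each group had 1 library, so no p-value is given, and every interval is an exact 95% interval of counting error that holds no spread between cultures. No treated library of cells without an inducible gene was analysed here, so an effect of doxycycline and one of the induced gene cannot be told apart.

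Entry into mitosis is driven by Cdk1 bound to cyclin B, with cyclin A acting before it and Cdc25 phosphatases removing the inhibitory phosphates. Chromosomes are then compacted by condensin and topoisomerase II, attached through kinetochores to spindle microtubules, and held until the spindle checkpoint releases the anaphase-promoting complex, which destroys securin and cyclin B. RNA of most of these genes is made late in the cell cycle and is low in cells that have left the cycle. Embryonic stem cells divide fast, whereas maturing cardiomyocytes withdraw from division, so the level of these RNAs is commonly read as a sign of how much of a culture is cycling.

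The libraries held from 2296145 to 4182146 reads in listed genes. Hey1 stood at 0.735 RPKM (reads divided by gene length and library depth) in uninduced and 8.59 RPKM in induced cells of its line, and Hey2 was blank in uninduced cells of its line, where the listing floor of 5 reads equals 0.343 RPKM, and 6.59 RPKM in induced ones. The label cardiomyocyte fitted both lines unequally. All 15 cardiomyocyte markers were listed in every library, but their summed level was 27192 and 27725 RPKM in uninduced and induced Hey1-line cells and 1478 and 1529 RPKM in those of the Hey2 line. Of 12 pluripotency markers, 11 were listed in the Hey1 line and all 12 in the Hey2 line, with sums of 43.3, 33.7, 432 and 449 RPKM in the same order. These sums moved with the difference between the lines reported below, and their part in it was not tested. In bulk RNA, fewer cells of a type and less RNA per cell cannot be told apart.

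All 52 genes were listed in every library, except Pttg1, which was blank in induced Hey1-line cells. Their median level was 2.50 RPKM in uninduced and 1.96 RPKM in induced Hey1-line cells, and 16.1 and 16.7 RPKM in uninduced and induced Hey2-line cells. The median of all compared genes was 5.42, 5.07, 6.40 and 6.44 RPKM in these libraries. In the Hey1 line 7 of the 52 genes stood above the all-gene median in uninduced cells and 4 of the 51 listed did so in induced cells. In the Hey2 line 50 and 49 did so. The mitotic genes took 0.115% (0.112% to 0.119%) of the reads in listed genes in uninduced and 0.0931% (0.0897% to 0.0965%) in induced Hey1-line cells, and 0.780% (0.768% to 0.791%) and 0.808% (0.7996% to 0.817%) in uninduced and induced Hey2-line cells. Without Top2a, the most abundant of them in the Hey2 line, the shares were 0.107%, 0.0873%, 0.667% and 0.690%. Reads per gene, taken as the smallest numbers that fit the values, were few in the Hey1 line, with medians of 52 and 39 and a lowest of 12. In the Hey2 line the medians were 279 and 501 and the lowest 44, so the intervals of the Hey1 line are the wider ones.

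**Figure D1:**
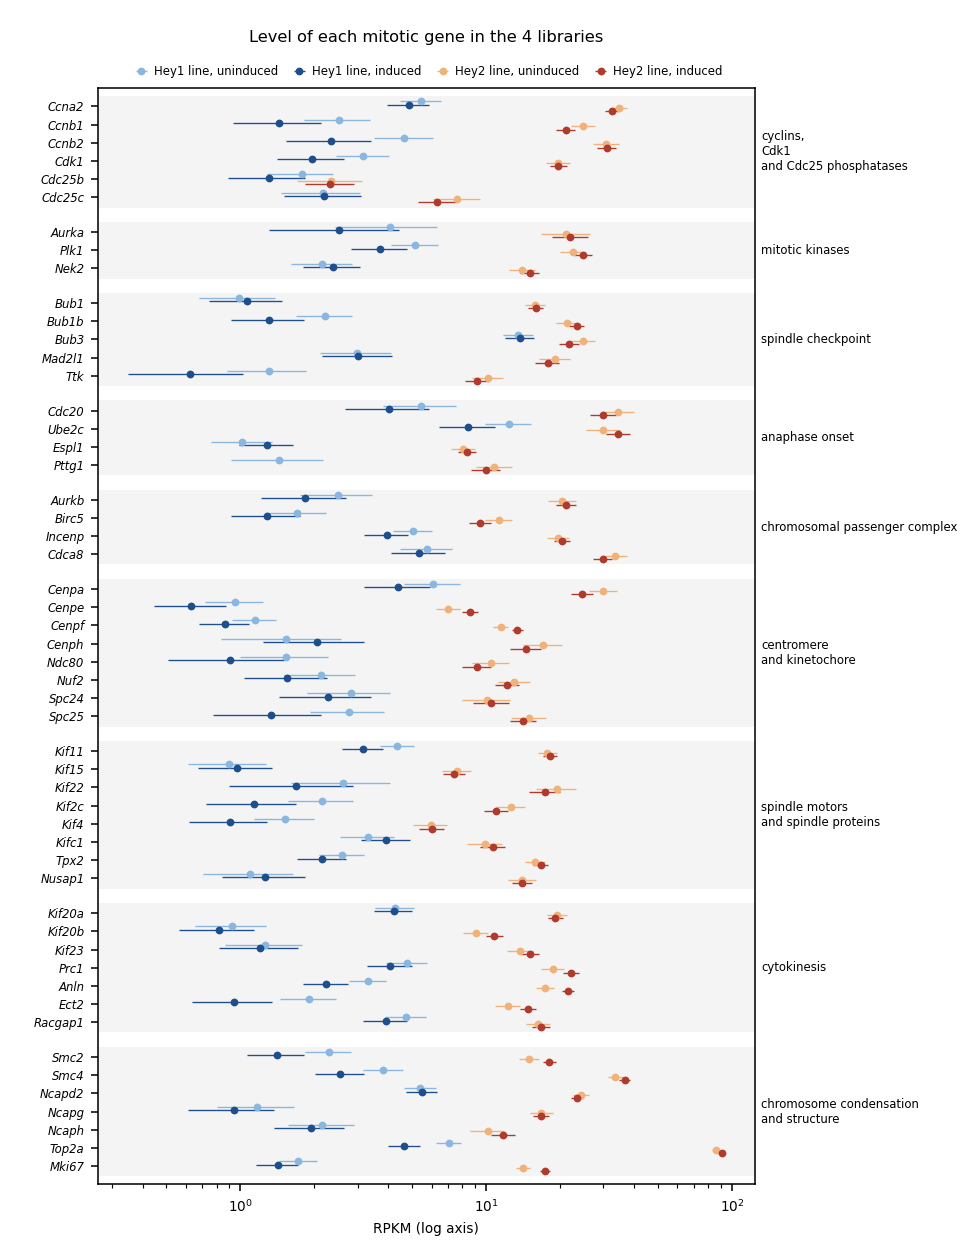
Level in RPKM (log axis) of the 52 mitotic genes, grouped by role, in the 4 libraries; points are single libraries and bars the exact 95% Poisson interval of counting error. The Hey2-line points lie to the right of the Hey1-line points in every row, and Bub3 and Cdc25b are the rows where they come closest.

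Across the lines, the mitotic genes were higher in the Hey2 line without exception. Comparison needed 4 listed values per gene, averaging 1 RPKM or more, which left 10991 genes and 51 of the 52, all but Pttg1. Of these 51, 4 had a Hey1-line mean under 1 RPKM and so entered only through the Hey2 line, where they had to be higher, and the counts that follow include them. Differences were taken on log2(RPKM + 1), a scale that shrinks the differences of low genes. In uninduced cells 51 of 51 were higher in the Hey2 line, against 58% of all compared genes, and 49 were so by at least 2-fold, against 19.7%. In induced cells 51 of 51 were again higher, against 60.1%, and 49 passed 2-fold, against 22.8%. The median difference was 2.18 in uninduced and 2.49 in induced cells, where all compared genes had medians of 0.20 and 0.27. As ratios of the RPKM themselves, the medians were 6.37 and 7.74. Rescaling the libraries to a common median ratio lowered the all-gene medians by 0.18 and 0.25 on the log2 scale, and the mitotic genes stood 1.98 and 2.22 above the all-gene median before it and 1.98 and 2.23 after it.

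The size of the line difference varied widely among the genes. Its lowest values were those of Cdc25b at 1.32-fold and Bub3 at 1.84-fold in uninduced cells, and its highest that of Bub1 at 16.0-fold. In induced cells the range ran from Bub3 at 1.59-fold to Top2a at 19.6-fold. The intervals of 12 genes lay below the median ratio of the mitotic genes in both the uninduced and the induced pair of libraries (Bub3, Cdc25b, Cdc25c, Incenp, Kif11, Kif20a, Kifc1, Ncapd2, Prc1, Racgap1, Spc24 and Ube2c). Those of 10 lay above it in both (Bub1, Bub1b, Ccnb1, Cenpf, Kif20b, Kif23, Mki67, Ncapg, Smc4 and Top2a). The order was alike in the uninduced and induced pairs, which share no library, with Spearman's rho of 0.836 over 51 genes that were read from the same 4 libraries.

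**Figure D2:**
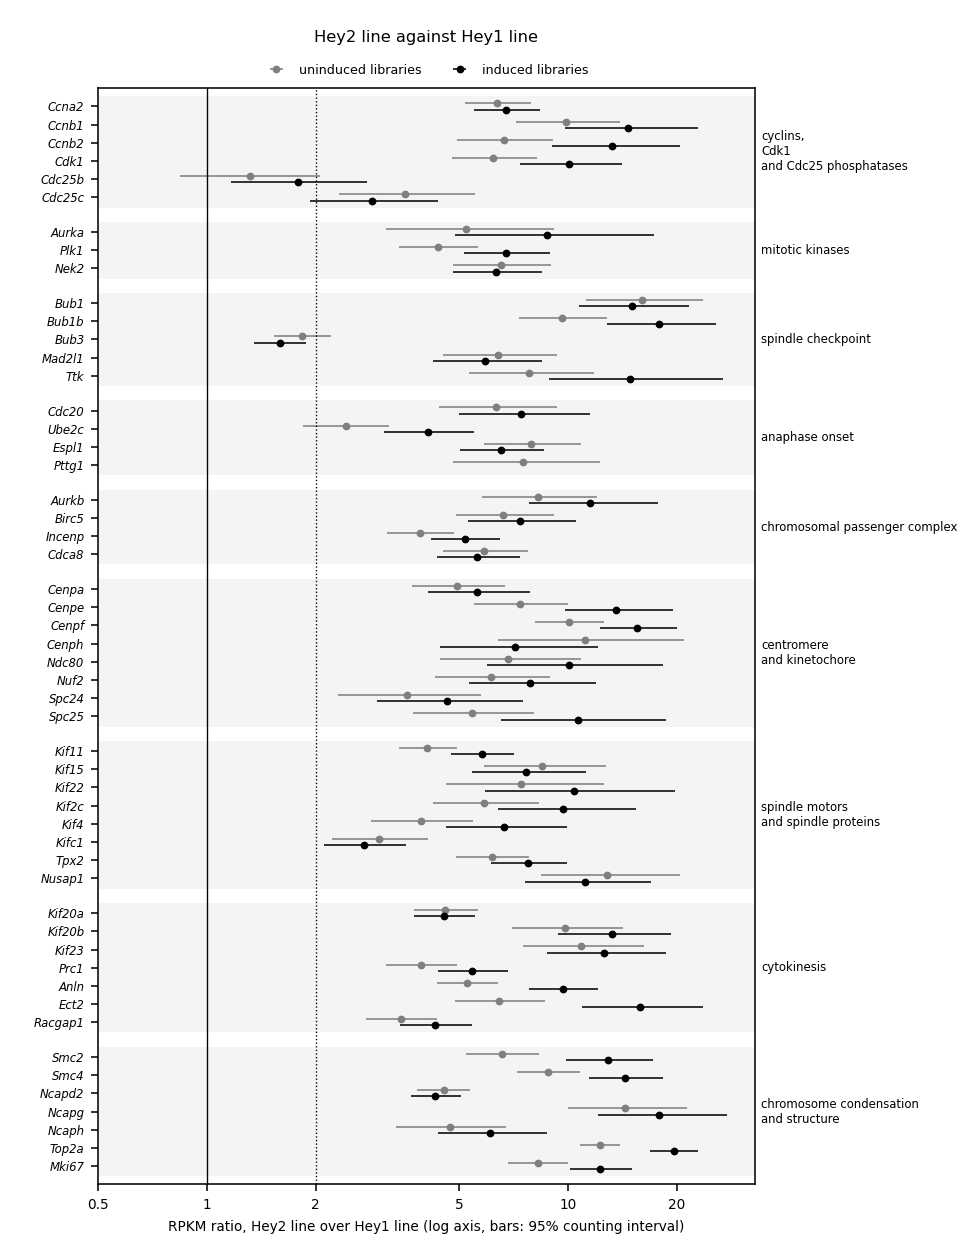
RPKM ratio of the Hey2 line over the Hey1 line (log axis) for each mitotic gene, in uninduced (grey) and induced (black) libraries, with the exact 95% counting interval; the solid line marks 1 and the dotted line 2. Cdc25b in uninduced cells is the single interval that reaches 1, and Bub1, Ncapg and Top2a are among the farthest to the right.

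The start regions of these genes shared short sequences that the choice of genes had not used. Many late cell cycle genes carry a cell cycle genes homology region, a short element bound by the DREAM and B-Myb complexes, together with CCAAT boxes, which bind NF-Y. RefSeq start windows of the build GRCm38.p6, from 250 bases before to 50 bases after a start, were matched by symbol for 43 of the 52 genes, in 46 windows. The letters TTTGAA, the usual core of the homology region, were sought on both strands and stood in 34 of 46 windows (73.9%), against 17.9% of all 32851 RefSeq windows of that length. Its variant TTCGAA, which reads the same on both strands, stood in 8.70% of the windows against 1.56%. Either core was present in 36 windows (78.3% against 19.2%), and in 32 of them it lay within 50 bases of the start (69.6% against 5.51%). The letters CCAAT were found on either strand in 76.1% against 37.4%, and at least 2 of them in 47.8% against 11.7%. The core together with CCAAT was present in 67.4% of the windows and in 7.52% of all. The Hey binding letters CACGTG, the E box, stood in 6.52% of the windows and 7.15% of all, and the class C letters CACGCG in 8.70% and 9.27%. Matches that overlap were each counted, and a match is a run of letters and not a shown binding site.

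Of these windows, 6 are printed from RefSeq, GRCm38.p6, 5′ to 3′ on the strand of the gene, with the letters of the core and of CCAAT in capitals on whichever strand they lie. Cyclin B and its kinase come first because they drive mitotic entry, Top2a is shown as the most abundant gene in the Hey2 line, and Bub3 and Cdc25b as the genes with the smallest line differences.
Ccnb1, chr13:100786437-100786736, minus strand: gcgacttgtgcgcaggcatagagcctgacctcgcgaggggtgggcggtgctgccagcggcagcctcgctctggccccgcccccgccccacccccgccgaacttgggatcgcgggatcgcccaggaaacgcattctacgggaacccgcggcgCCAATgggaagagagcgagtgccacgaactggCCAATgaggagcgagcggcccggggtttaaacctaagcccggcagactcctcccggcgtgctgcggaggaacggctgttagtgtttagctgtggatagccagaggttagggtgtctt
Ccnb2, chr9:70421505-70421804, minus strand: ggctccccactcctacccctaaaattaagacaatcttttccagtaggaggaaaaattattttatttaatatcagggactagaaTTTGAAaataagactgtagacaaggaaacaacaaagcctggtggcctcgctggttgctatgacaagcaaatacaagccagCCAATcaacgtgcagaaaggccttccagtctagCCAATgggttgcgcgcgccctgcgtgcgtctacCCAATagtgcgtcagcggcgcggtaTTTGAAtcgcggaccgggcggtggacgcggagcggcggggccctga
Cdk1, chr10:69352863-69353162, minus strand: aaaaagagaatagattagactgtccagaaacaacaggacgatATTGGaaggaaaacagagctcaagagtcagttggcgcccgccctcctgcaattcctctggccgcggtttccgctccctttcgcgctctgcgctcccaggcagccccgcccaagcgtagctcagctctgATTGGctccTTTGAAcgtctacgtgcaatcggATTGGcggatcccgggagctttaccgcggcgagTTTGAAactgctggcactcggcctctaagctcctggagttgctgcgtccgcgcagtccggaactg
Top2a, chr11:99024140-99024439, minus strand: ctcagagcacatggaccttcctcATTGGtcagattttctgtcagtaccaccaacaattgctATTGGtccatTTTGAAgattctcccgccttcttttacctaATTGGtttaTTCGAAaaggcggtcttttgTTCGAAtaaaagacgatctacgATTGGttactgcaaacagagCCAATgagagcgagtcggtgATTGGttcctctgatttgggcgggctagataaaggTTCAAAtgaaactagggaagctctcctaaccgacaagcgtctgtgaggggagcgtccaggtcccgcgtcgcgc
Bub3, chr7:131560120-131560419, plus strand: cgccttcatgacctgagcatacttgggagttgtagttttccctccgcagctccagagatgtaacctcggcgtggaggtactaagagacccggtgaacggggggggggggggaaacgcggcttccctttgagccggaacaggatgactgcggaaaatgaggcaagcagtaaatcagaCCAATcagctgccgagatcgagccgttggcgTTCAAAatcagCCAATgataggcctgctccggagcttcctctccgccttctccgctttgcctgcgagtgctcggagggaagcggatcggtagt
Cdc25b, chr2:131186698-131186997, plus strand: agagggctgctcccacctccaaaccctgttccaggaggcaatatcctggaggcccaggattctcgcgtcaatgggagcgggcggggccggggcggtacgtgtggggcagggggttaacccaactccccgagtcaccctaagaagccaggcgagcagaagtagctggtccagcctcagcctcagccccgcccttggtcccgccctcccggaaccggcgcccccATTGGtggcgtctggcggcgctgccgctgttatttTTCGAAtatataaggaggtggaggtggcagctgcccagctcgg
The window of Top2a held 2 TTTGAA, 2 TTCGAA and 6 CCAAT, those of Ccnb2 and Cdk1 each 2 TTTGAA and 3 CCAAT, and that of Ccnb1 2 CCAAT and neither core. Bub3 had 1 TTTGAA with 2 CCAAT and Cdc25b 1 TTCGAA with 1 CCAAT, so the genes with the smallest line differences also carried a core. Over the compared genes with a window, the median line ratio in uninduced cells was 6.33 for the 33 with a core and 6.61 for the 9 without one. In induced cells these medians were 9.70 and 7.36.

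Among the genes of mitotic entry, the cyclins and Cdk1 differed strongly between the lines and the Cdc25 phosphatases less so. Cyclin A2, Ccna2, the highest of the group, stood at 5.43 RPKM in uninduced and 4.84 in induced Hey1-line cells, and at 34.6 and 32.6 in uninduced and induced Hey2-line cells, a line ratio of 6.37 (5.19 to 7.86) in uninduced and 6.74 (5.49 to 8.35) in induced cells. Cyclin B1, Ccnb1, had the largest line difference of the group, with levels of 2.51, 1.44, 24.8 and 21.1 RPKM in the same order and ratios of 9.88 (7.17 to 13.9) and 14.6 (9.80 to 22.8). Cyclin B2, Ccnb2, read 4.65, 2.34, 30.8 and 30.96 RPKM. Cdk1 itself read 3.17, 1.96, 19.6 and 19.7 RPKM, so all 4 genes were low in both Hey1-line libraries and lowest in the induced one. Cdc25b, a phosphatase that activates Cdk1 at the centrosome, read 1.77, 1.30, 2.34 and 2.32 RPKM, and its uninduced line ratio of 1.32 (0.845 to 2.05) lay within counting error. Its relative Cdc25c read 2.16, 2.20, 7.62 and 6.31 RPKM. The level of Cdc25b over that of Cdc25c was 0.822 (0.506 to 1.35) and 0.592 (0.351 to 0.999) in uninduced and induced Hey1-line cells and 0.307 (0.208 to 0.446) and 0.368 (0.275 to 0.492) in the Hey2 line, so that the uninduced Hey1-line proportion alone lay clear of those of the Hey2 line.

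The mitotic kinases were all higher in the Hey2 line. Plk1, the polo kinase needed for centrosome maturation and cytokinesis, read 5.15, 3.69, 22.5 and 24.8 RPKM in uninduced and induced Hey1-line and uninduced and induced Hey2-line cells, with line ratios of 4.37 (3.41 to 5.64) and 6.71 (5.14 to 8.89). Nek2, a kinase that parts the centrosomes, read 2.16, 2.38, 14.04 and 15.01 RPKM, with the largest uninduced line ratio of the 3, at 6.51 (4.81 to 8.97). Aurora A, Aurka, the kinase of the spindle poles, read 4.04, 2.52, 21.1 and 22.01 RPKM. Its recovered reads were 19, 12, 77 and 145 at a length of 635 bases, the smallest that gives whole reads. A longer gene model would mean more reads and narrower intervals.

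In the spindle checkpoint, which delays anaphase until every chromosome is attached, Bub3 stood apart from its partners. Bub3, a WD-repeat protein that brings Bub1 and BubR1 to the kinetochore, read 13.5, 13.7, 24.8 and 21.8 RPKM in the 4 libraries, the highest mitotic gene in both Hey1-line libraries. Its line ratios were 1.84 (1.53 to 2.21) and 1.59 (1.35 to 1.88). The kinase Bub1 read 0.987, 1.06, 15.8 and 15.9 RPKM, with line ratios of 16.0 (11.2 to 23.6) and 15.0 (10.7 to 21.6). Per length, the Bub1 level was 0.0732 (0.0491 to 0.106) and 0.0776 (0.0529 to 0.111) of the Bub3 level in the Hey1 line and 0.638 (0.548 to 0.744) and 0.730 (0.649 to 0.821) in the Hey2 line. Bub1b, which encodes BubR1, read 2.21, 1.31, 21.2 and 23.3 RPKM, and its proportion to Bub3 moved the same way. The checkpoint kinase Ttk, also called Mps1, read 1.30, 0.622, 10.2 and 9.20 RPKM, and its induced Hey1-line value was the lowest listed for any mitotic gene in any library. Mad2l1, the checkpoint protein that captures Cdc20, read 2.98, 3.01, 19.1 and 17.8 RPKM.

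At anaphase onset, Ube2c, the ubiquitin-conjugating enzyme of the anaphase-promoting complex, had the highest mean, at 12.3, 8.45, 29.9 and 34.5 RPKM. Its line ratios of 2.42 (1.85 to 3.19) and 4.08 (3.09 to 5.48) were among the smallest. Cdc20, the activator of that complex, read 5.45, 4.04, 34.5 and 29.9 RPKM and differed more, with ratios of 6.33 (4.40 to 9.33) and 7.42 (4.99 to 11.5). Separase, Espl1, which cuts cohesin, read 1.02, 1.29, 8.05 and 8.37 RPKM. Securin, Pttg1, the inhibitor of separase, read 1.44 RPKM in uninduced Hey1-line cells, was blank in induced ones, and read 10.8 and 9.96 RPKM in the Hey2 line. Against the listing floor of 10 reads per library, which for Pttg1 equals 0.618 RPKM, it was at least 2.33-fold lower in induced than in uninduced Hey1-line cells, and at least 16.1-fold higher in induced Hey2-line cells than in induced Hey1-line cells. These folds are point values that leave out counting error, and the one within the Hey1 line rests on 23 reads.

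The chromosomal passenger complex, which corrects faulty attachments and later marks the site of cleavage, was higher in the Hey2 line in all 4 genes. Its scaffold Incenp had the smallest difference, at 5.04, 3.94, 19.6 and 20.3 RPKM, with a ratio of 3.89 (3.16 to 4.83) in uninduced cells. Its kinase Aurkb read 2.49, 1.84, 20.4 and 21.2 RPKM and had the largest, at 8.22 (5.77 to 12.03). Borealin, Cdca8, the highest of the group, read 5.73, 5.33, 33.6 and 29.9 RPKM, and survivin, Birc5, read 1.70, 1.28, 11.2 and 9.44. The level of Birc5 over that of Cdca8 kept close, at 0.297 (0.202 to 0.432), 0.241 (0.158 to 0.363), 0.335 (0.283 to 0.396) and 0.316 (0.276 to 0.361), with overlapping intervals in the 4 libraries.

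All 8 centromere and kinetochore genes passed 2-fold in both pairs of libraries. Cenpa, the histone H3 variant that marks the centromere, was the most abundant, at 6.06, 4.39, 29.9 and 24.6 RPKM, with an uninduced line ratio of 4.93 (3.70 to 6.67). Cenph, of the inner kinetochore, read 1.53, 2.04, 16.98 and 14.5 RPKM, and its uninduced ratio of 11.1 (6.38 to 21.0) rested on 14 Hey1-line reads. The Ndc80 complex binds microtubules and has 4 subunits, all among these genes. Ndc80 read 1.53, 0.909, 10.4 and 9.15 RPKM and Nuf2 read 2.14, 1.55, 13.0 and 12.1. Spc24 read 2.80, 2.27, 10.1 and 10.5 RPKM, with the smallest ratio of the group at 3.59 (2.30 to 5.74), and Spc25 read 2.77, 1.33, 15.0 and 14.2. All 4 subunits were thus at most 2.80 RPKM in the Hey1 line and from 9.15 to 15.0 RPKM in the Hey2 line. Cenpe, a kinesin of the outer kinetochore, read 0.951, 0.631, 6.99 and 8.59 RPKM, and the large coiled-coil protein Cenpf 1.14, 0.863, 11.5 and 13.4, with line ratios of 10.04 (8.09 to 12.6) and 15.5 (12.3 to 19.96).

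Spindle motors and spindle proteins had line ratios from 2.996 to 12.8 in uninduced cells. Kif11, the bipolar kinesin Eg5 that pushes the poles apart, was the highest, at 4.35, 3.15, 17.7 and 18.2 RPKM. Nusap1, which bundles spindle microtubules, read 1.096, 1.26, 14.04 and 14.002 RPKM and had the largest ratio, 12.8 (8.41 to 20.4). Kif2c, also called MCAK, a microtubule depolymerase, read 2.15, 1.13, 12.6 and 11.0 RPKM. The chromosome-bound motors Kif4 and Kif22 had uninduced line ratios of 3.91 and 7.40, the spindle motor Kif15 one of 8.49, and Tpx2, the activator of Aurora A, one of 6.14. The row named Kifc1, a minus-end directed kinesin, read 3.29, 3.91, 9.86 and 10.6 RPKM, with the smallest ratio, 2.996 (2.22 to 4.08), and is uncertain. RefSeq gives its Entrez number 16580 to Kifc5b, a close copy. The number that RefSeq gives to Kifc1, 100502766, is a row without a symbol that read 3.32, 1.89, 8.99 and 8.22 RPKM, and how reads were divided over both is not given in the sources used here.

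For cytokinesis, the central spindle genes Kif23 and Racgap1 differed unequally although their proteins form 1 complex, centralspindlin. Kif23 read 1.26, 1.21, 13.7 and 15.1 RPKM, with an uninduced line ratio of 10.9 (7.51 to 16.2). Racgap1 read 4.72, 3.90, 16.3 and 16.7 RPKM, with a ratio of 3.45 (2.76 to 4.34). The Kif23 level was 0.267 (0.175 to 0.400) and 0.310 (0.199 to 0.470) of the Racgap1 level in the Hey1 line and 0.841 (0.711 to 0.996) and 0.908 (0.804 to 1.02) in the Hey2 line. Prc1, which bundles the microtubules of the midzone, had the highest mean, at 4.76, 4.07, 18.7 and 22.1 RPKM. Ect2, the exchange factor that switches on RhoA at the equator, read 1.91, 0.940, 12.2 and 14.8 RPKM, and anillin, Anln, a scaffold of the contractile ring, read 3.32, 2.24, 17.4 and 21.6. The midzone kinesins Kif20a and Kif20b read 4.26, 4.20, 19.5 and 19.1 RPKM and 0.923, 0.815, 9.07 and 10.8 RPKM.

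The chromosome structure genes included the most abundant mitotic gene of the Hey2 line. Top2a, topoisomerase II alpha, which untangles sister chromatids, read 7.05, 4.65, 86.3 and 91.0 RPKM on 272, 182, 2589 and 4923 reads, with line ratios of 12.2 (10.8 to 13.9) and 19.6 (16.9 to 22.8). Mki67, which coats mitotic chromosomes and is the common marker of cycling cells, read 1.72, 1.42, 14.1 and 17.4 RPKM, with ratios of 8.22 (6.82 to 9.99) and 12.3 (10.1 to 15.1). The 5 condensin I genes did not move as 1 block. Ncapg read 1.17, 0.937, 16.8 and 16.7 RPKM and had line ratios of 14.4 (9.99 to 21.3) and 17.8 (12.1 to 27.5), whereas Ncapd2 read 5.39, 5.46, 24.3 and 23.4 with ratios of 4.52 (3.82 to 5.36) and 4.29 (3.67 to 5.04). The Ncapg level was 0.217 (0.144 to 0.317) and 0.172 (0.109 to 0.259) of the Ncapd2 level in the Hey1 line and 0.690 (0.604 to 0.786) and 0.714 (0.647 to 0.788) in the Hey2 line. Ncaph read 2.16, 1.93, 10.1 and 11.7 RPKM, from 0.353 to 0.501 of Ncapd2 in the 4 libraries. The core ATPases Smc2 and Smc4 read 2.29, 1.403, 15.0 and 18.1 RPKM and 3.81, 2.55, 33.5 and 36.6 RPKM.

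Induction of Hey1 was the next comparison. In the Hey1 line the induced library was the lower one for 40 of the 51 genes and the higher one for 11, against 61.6% of all compared genes lower and 38.4% higher. After median ratio scaling 47.9% of all genes and 38 of the 51 were lower, and after upper quartile scaling 52.03% and 39. A ratio of at most 0.8 was reached by 28 of the 51, or 54.9%, where 19.9% of all compared genes reached it, and an equal change upward, past the inverse of 0.8, by 2 (Espl1 and Cenph), where 6.44% did. None passed 2-fold on log2(RPKM + 1), where 0.109% of all genes did downwards and 0.0273% upwards. The median difference was −0.26 against −0.06 for all genes, a gap of −0.20 that was −0.23 under both scalings and −0.13 over the 21 genes with 50 reads in both libraries. The shares past a ratio of 0.8 or its inverse were not matched for depth. Mitotic genes had medians of 52 and 39 reads here, against 99 and 95 over all listed genes, so their counting error is larger. Counts over genes with 50 reads in both libraries are given in the last section.

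The counting interval lay below 1 for 15 of the 51 genes, against 13.4% of all compared genes, and above 1 for 0, against 4.88%. In mitotic entry these were Ccnb2, 1.99-fold lower (1.23 to 3.29), Ccnb1, 1.74-fold (1.04 to 2.98), and Cdk1, 1.62-fold (1.08 to 2.44). Ccna2 was 1.12-fold lower with an interval of 0.851 to 1.48, so cyclin A2 was not separated from no change. In the checkpoint Ttk was 2.09-fold lower (1.097 to 4.18) and Bub1b 1.69-fold (1.099 to 2.63), while Bub1, Bub3 and Mad2l1 had induction ratios of 1.08, 1.02 and 1.01. Ube2c was 1.46-fold lower (1.04 to 2.07) and Spc25 2.09-fold (1.14 to 3.97). Among the motors they were Kif2c, 1.90-fold (1.13 to 3.26), Kif4, 1.68-fold (1.06 to 2.69), and Kif11, 1.38-fold (1.08 to 1.77). These intervals are of unscaled RPKM and were not recomputed after scaling. The median ratio of all compared genes was 0.949, and the upper bounds of the Ube2c and Ccnb1 ratios, 0.966 and 0.961, lay above it. That of the Kif4 ratio, 0.941, lay just below it.

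For cytokinesis Ect2 was 2.03-fold lower (1.29 to 3.26) and Anln 1.48-fold (1.13 to 1.96), and all 7 genes of that role lay below a ratio of 1. For the chromosomes Top2a was 1.51-fold lower (1.251 to 1.84), Smc2 1.63-fold (1.15 to 2.32) and Smc4 1.49-fold (1.11 to 2.02), while Ncapd2 stood at a ratio of 1.01 (0.821 to 1.252). Mitotic kinases and passenger genes had no interval off 1 at the recovered reads, which are minimal. The interval of Aurka would narrow with a longer gene model. Aurka was 1.60-fold lower (0.740 to 3.63), Plk1 1.396-fold (0.992 to 1.97) and Aurkb 1.35-fold (0.798 to 2.31). All 11 compared pluripotency markers were lower after Hey1 induction too, with a median difference of −0.17, as were all 6 compared fibroblast markers, at −0.21. Of all compared genes 61.6% were lower. Intervals lay below 1 for 2 of these pluripotency and 3 of these fibroblast markers, against 13.4% of all compared genes. Of the 15 cardiomyocyte markers 7 were higher and 8 lower. The part of these markers in the lower mitotic levels was not tested.

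**Figure D3:**
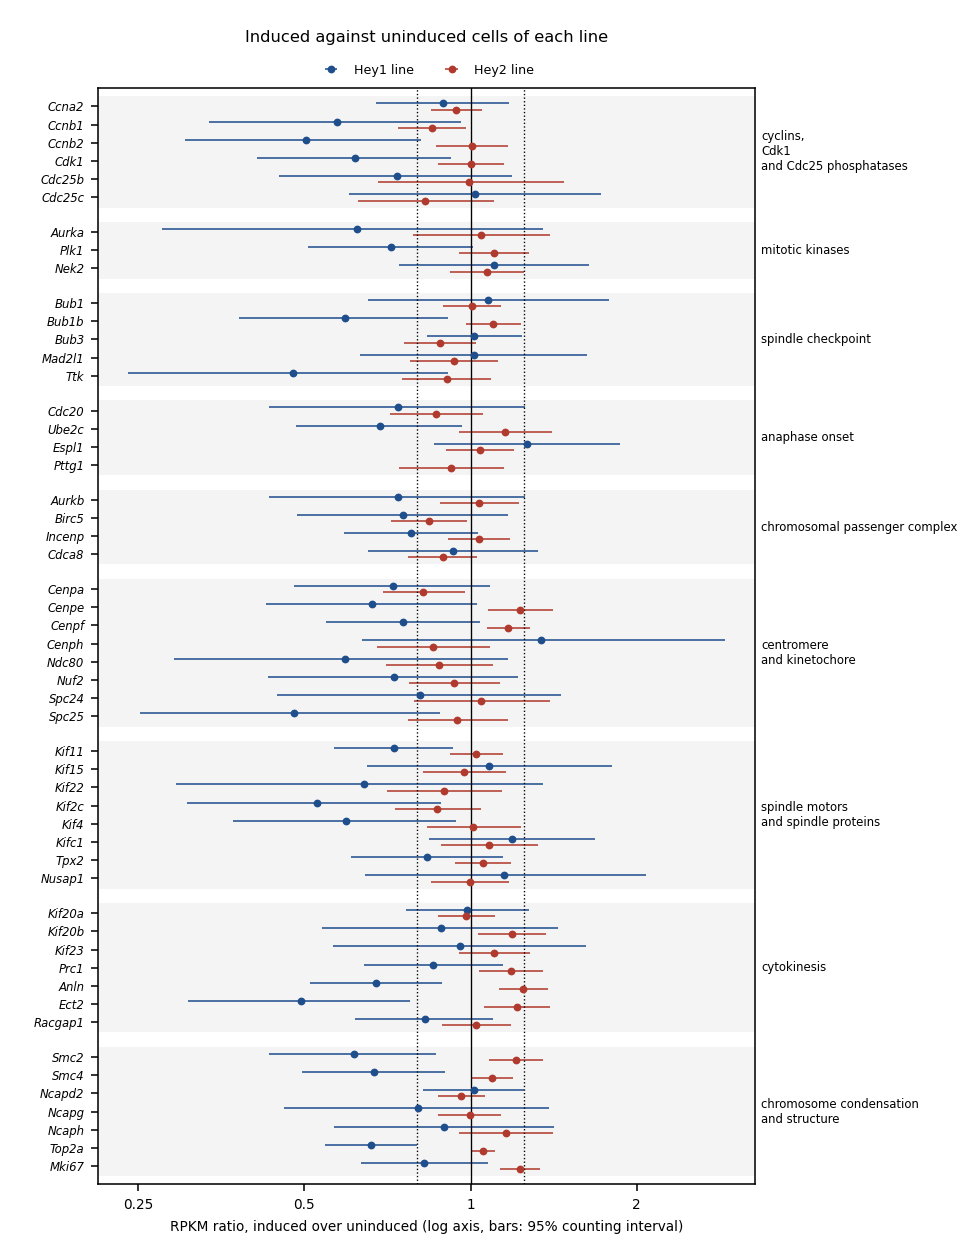
RPKM ratio of induced over uninduced cells (log axis) for each mitotic gene in the Hey1 line (blue) and the Hey2 line (red), with the exact 95% counting interval; the solid line marks 1 and the dotted lines 0.8 and its inverse. Most blue points lie left of 1 with wide bars, and all red points lie between the dotted lines.

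Induction of Hey2 left the mitotic genes close to their uninduced level. Of the 51, 29 were higher and 22 lower, against 49.4% of all compared genes higher. None reached a ratio of at most 0.8, where 9.63% of all genes did, or the inverse of that ratio, where 9.64% did. Over genes with 50 reads in both libraries these all-gene shares were 6.91% and 6.04%. Ratios ran from 0.822 for Cenpa to 1.24 for Anln. The median difference was 0.015. Counting intervals lay above 1 for 10 genes, against 8.03% of all, and below 1 for 3, against 6.62%. These shares were not matched for depth. Mitotic genes had medians of 279 and 501 reads in these libraries, against 74 and 117 over all listed genes, so their intervals are narrower. The 10 were Anln at a ratio of 1.24 (1.12 to 1.38), Cenpe at 1.23 (1.07 to 1.41), Mki67 at 1.23 (1.13 to 1.34), Ect2 at 1.21 (1.06 to 1.39), Smc2 at 1.21 (1.08 to 1.35), Kif20b at 1.19 (1.03 to 1.37), Prc1 at 1.18 (1.04 to 1.36), Cenpf at 1.17 (1.07 to 1.28), Smc4 at 1.09 (1.002 to 1.19) and Top2a at 1.05 (1.005 to 1.11). The 3 were Cenpa at 0.822 (0.693 to 0.976), Birc5 at 0.840 (0.717 to 0.985) and Ccnb1 at 0.850 (0.738 to 0.979). Of the 7 cytokinesis genes 6 were higher, and of the 7 chromosome genes 5. By contrast Ccnb2 and Cdk1 both stood at a ratio of 1.00.

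Gene length moved with this pattern. Over the 51 genes, Spearman's rho between the Hey2 induction ratio and the length of the gene model was 0.524, and over 10987 compared genes with a length it was 0.223. Genes of at least the median length of 3149 bases were higher in 19 of 26 cases, with a median difference of 0.0597. Of 4950 compared genes of such length 59.5% were higher, with a median of 0.037. Shorter mitotic genes were higher in 10 of 25 cases, with a median of −0.082. The share of all shorter genes was not computed. It lay below the 49.4% of all compared genes, because the share of longer genes lay above. In the Hey1 line rho was 0.0675 over the 51 genes, and 21 of 26 long and 19 of 25 short ones were lower. All-gene shares by length were not computed there. Lengths are the smallest that give whole reads, and the points share their libraries. Fibroblast markers, 6 of 6, and pluripotency markers, 8 of 11, were also higher with Hey2, with median differences of 0.32 and 0.16. So were 12 of 15 cardiomyocyte and 4 of 4 smooth muscle markers, with medians of 0.061 and 0.098, and 1 of 2 endoderm markers. Of all compared genes 49.4% were higher. The part of length and of these markers was not tested.

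**Figure D4:**
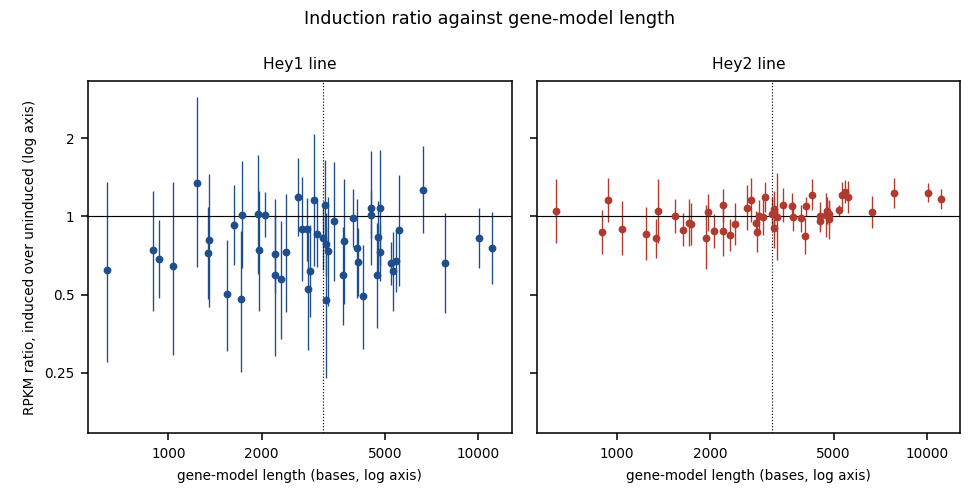
RPKM ratio of induced over uninduced cells (log axis) against gene-model length in bases (log axis) for the 51 compared mitotic genes, in the Hey1 line (left) and the Hey2 line (right), with exact 95% counting intervals; the dotted line marks the median length of 3149 bases. On the right the longer genes lie above 1 more often (19 of 26) than the shorter ones (10 of 25), and on the left both lie mostly below 1. With Hey2 induction 59.5% of all compared genes of at least this length were higher, against 49.4% of all compared genes.

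The responses to Hey1 and Hey2 rest on separate libraries. Each counted alone, 40 of the 51 genes were lower with Hey1 and 29 higher with Hey2. Crossed, 25 were lower with Hey1 and higher with Hey2, 15 lower in both, 7 higher with Hey1 and lower with Hey2, and 4 higher in both. Shares of all compared genes in these classes were not computed, so the counts are not read as an opposed response. The intervals of both ratios did not overlap for 10 genes (Ccnb2, Bub1b, Cenpe, Cenpf, Anln, Ect2, Smc2, Smc4, Top2a and Mki67), each with the lower ratio in the Hey1 line, a rule that 5.54% of all compared genes met. Ccnb1 alone had an interval below 1 in both lines, on unscaled RPKM. Spearman's rho between both ratios over the 51 genes was −0.0506.

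Other genes of cell division gave a graded picture between the lines. Of 91 further mitotic genes 83 were compared, and 57 were higher by 2-fold in the uninduced Hey2 line and 61 in the induced one. Their median differences were 1.38 and 1.41, and 19.7% and 22.8% of all compared genes passed 2-fold. Of the 83 genes, 18 of 18 further spindle and cytokinesis genes passed 2-fold in both pairs. So did 14 and 15 of 23 further kinetochore genes and 11 and 12 of 13 cohesin and condensin II genes. The 14 subunits and regulators of the anaphase-promoting complex were the exception, with 2 and 4 past 2-fold and medians of 0.55 and 0.52. These counts are 14.3% and 28.6%, near the shares of all compared genes. Of 15 regulators of mitotic entry and of late cell cycle transcription, 12 passed in each pair. All 40 DNA replication genes were higher, 36 and 37 of them by 2-fold, with medians of 1.80 and 1.85.

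Under Hey1 induction 61 of the 83 further mitotic genes and 31 of the 40 replication genes were lower, against 61.6% of all compared genes. Their medians of −0.10 and −0.13 were nearer to the all-gene median of −0.06 than the −0.26 of the genes described above. Under Hey2 induction the further mitotic genes were higher in 36 cases and lower in 47, with a median of −0.02. Replication genes were lower in 32 of 40 cases, with a median of −0.15, where 50.6% of all compared genes were lower. Of the 40, 10 had an interval below 1 and 0 above, against 6.62% and 8.03% of all. The 51 mitotic genes described above had a median of 0.015 in that comparison, beside an all-gene median of −0.0024, and no test was made between the lists.

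**Figure D5:**
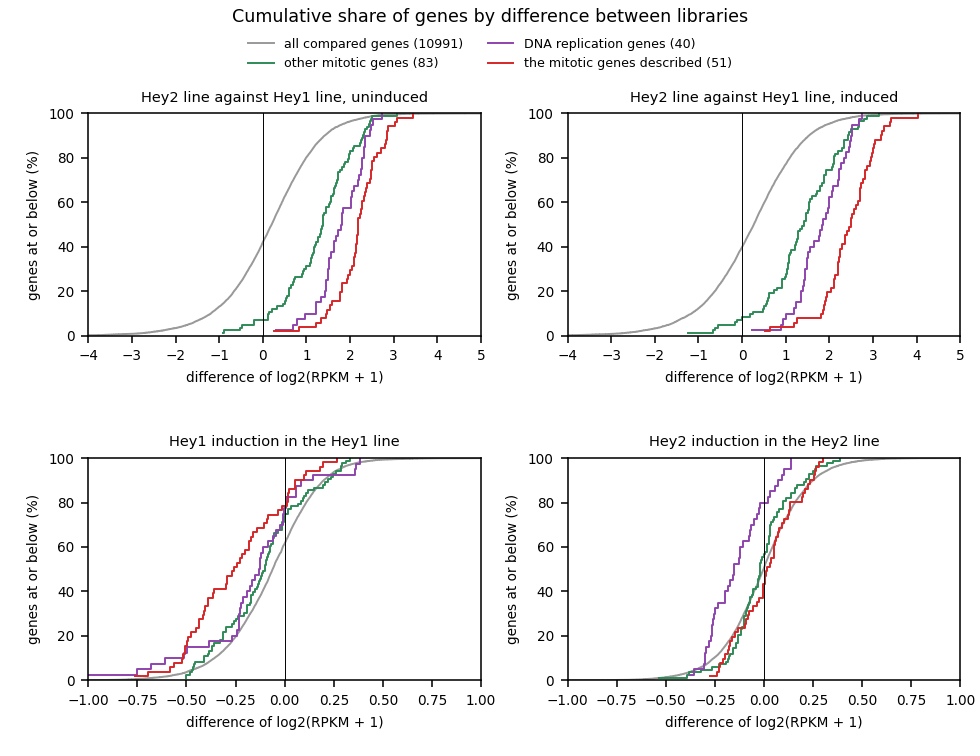
Cumulative share of genes (%) against the difference of log2(RPKM + 1) in the 4 comparisons, for all compared genes (grey), other mitotic genes (green), DNA replication genes (purple) and the 51 compared mitotic genes (red). In the upper panels the red curve lies farthest to the right, with medians of 2.18 and 2.49, and in the lower left panel it lies left of the others over most of its length, with a median of −0.26.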

How the data were processed

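The values are RPKM that the authors deposited in 1 table, 1 column for each RNA library, per the file headers. It also has 1 signed fold per line, a score that the authors derived from the RPKM and that was not used. Per the submitters' processing notes the build was mm9 and the tools were Bowtie 1.0, MACS 1.4.1 and DESeq, the last without a version. How reads were counted (annotation, counter, strand, multiple matches) is not given in the sources used here, so genes with near copies, overlapping genes and antisense genes are uncertain. The 8 chromatin samples were not analysed here.

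Whole reads were recovered from the steps of the RPKM: 15363 of 15371 genes (99.9%) gave whole reads at depths of 7.4, 7.5, 5.75 and 10.375 M reads, with a deviation of at most 1.22e-05 reads. The smallest gene length that gives whole reads was used, so read numbers are minimal and intervals widest. A blank was taken as below a floor of 10 reads (Hey1 line) or 5 reads (Hey2 line). The recovery was tested on simulated data. Intervals (exact binomial for ratios and shares, exact Poisson for levels, 95%) cover counting error only, since PCR copies are not independent. Folds against a floor are point values without an interval.

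Genes needed 4 values and a mean of at least 1 RPKM, and 13 entries with the same values as another were left out. Differences used a pseudocount of 1 RPKM, and ratios did not. No count test was run on the recovered reads, because 1 library per group leaves no spread to estimate. Alternatives were another pseudocount, filters, scalings and the treatment of blanks. In each role the text gives the genes with the highest mean, the largest and smallest uninduced line difference and the largest induction difference, besides every gene whose induction interval lay off 1 and pairs of partners. The genes and lists were chosen with earlier results of these data known. Start windows came from RefSeq (GRCm38.p6), matched by symbol. The tools were SciPy 1.17.1, pandas 2.3.3, NumPy 2.4.6 and Matplotlib 3.10.9 under Python 3.11.15.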

Additional observations from a re-analysis of the deposited data

Results flagged for a closer look

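For 5 genes the induced library was the lower one in the Hey1 line and the higher one in the Hey2 line, with counting intervals off 1 on opposite sides, as 1.36% of all compared genes had. The ratios of induced over uninduced cells in the Hey1 and Hey2 lines were 0.675 and 1.24 for Anln, 0.493 and 1.21 for Ect2, 0.614 and 1.21 for Smc2, 0.669 and 1.09 for Smc4, and 0.660 and 1.05 for Top2a. With 1 library in each group the difference between the lines was not tested. All 5 are of at least the median length of the mitotic genes, and length moved with the Hey2 ratio.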

How the results depend on the processing

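No paired analysis was possible because each group had 1 library, and for the same reason no replicate could be left out. No called value changed sign under any alternative run. With a pseudocount of 0.1 RPKM the median line differences were 2.64 in uninduced and 2.89 in induced cells and the Hey1 median −0.38, with 1 gene lower by 2-fold. Median ratio scaling gave line medians of 2.004 and 2.24 and upper quartile scaling 2.03 and 2.29. Under upper quartile scaling 1 gene reached the inverse of 0.8 with Hey2, against 10.3% of all genes. With blanks read as 0, 1 gene was lower by 2-fold with Hey1. At a mean of at least 5 RPKM, 1 gene reached the inverse of 0.8 with Hey1, against 3.72% of all genes so filtered. Requiring 50 reads in each library left 29 and 21 genes in the line comparisons, of which 28 and 20 passed 2-fold, with an induced median of 2.25. All of them were higher, against 60.8% and 56.6% of all genes so filtered, whose share past 2-fold was not computed. The same rule left 21 genes in the Hey1 comparison, with 9 at 0.8 or less and 1 at its inverse or more. Of 8104 genes so filtered, 14.3% and 3.83% reached these ratios. Fewer genes are compared in these cases by construction. Of the differences of single named genes, 32 moved past their counting error with the pseudocount of 0.1, 3 with median ratio and 1 with upper quartile scaling. Among the long genes, an alternative chosen after seeing the data, the Hey2 median was 0.0597. Read numbers per mitotic gene were lower in the Hey1 line, with medians of 52 and 39, than in the Hey2 line, with 279 and 501, and its intervals are wider.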
